A study of Mus musculus with 12 samples.

Results

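CD8 T cells sorted from mouse brain 30 days after stroke were compared with CD8 T cells sorted from the blood of naive mice, gene by gene. The comparison used the 3 libraries labelled as brain 30 days post-stroke and the 3 labelled as naive mouse blood, out of 12 in the study, and it covered the 19871 of 23937 genes that reached at least 1 CPM in at least 3 of these 6 libraries. The other 6 libraries came from brain 3 days post-stroke and from naive mouse brain, 3 each, and served to estimate the spread and as further comparisons. No strain, age, sex, stroke model or sham operation is given in the labels, and naive is their word, read here as without stroke. The protocol in the labels speaks of spleens as the tissue dissociated, whereas each sample is labelled brain or blood, and the sample labels are followed here. Tissue and stroke differ together between these groups, so the contribution of each cannot be told apart in this comparison, and the naive brain libraries are the only ones from brain without stroke. Whether the replicates of a group came from different animals is not said, and p-values therefore describe only the variation among these libraries, which could be technical.

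CD8 T cells carry receptors for peptides presented by MHC class I molecules and, once activated, kill target cells with granzymes and perforin and secrete interferon gamma. Cells that circulate in the blood of an unchallenged animal are mostly naive or central memory cells that home to lymph nodes, while cells that settle in tissues as resident memory cells display a different set of chemokine receptors, adhesion molecules and inhibitory receptors. In the brain, a T cell sort can also carry along microglia, the resident macrophages of that organ.

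The 3 day 30 libraries held 6844661, 1723245 and 1948611 reads and the 3 naive blood libraries 1445036, 1104490 and 2141262 reads. Values are CPM, gene counts relative to a library size that the authors had scaled, and 3 reads, up to which a gene without a read may lie, correspond to 0.680 to 1.38 CPM at day 30 and to 1.06 to 1.65 CPM in blood. Scaled CPM summed to 1550640, 791226 and 880022 at day 30 and to 781412, 605856 and 753695 in blood. Rankings of libraries within a group below refer to scaled CPM. Differences are log2(CPM + 1) of day 30 brain minus naive blood ± SE (n = 3 against 3), a scale on which changes of low genes come out too small. Reads on 1490 chemosensory receptor genes (olfactory, vomeronasal or taste), taken as background, came to 524 unscaled CPM (without the authors' scaling) in day 30 replicate 1, 3188 and 2016 in the other day 30 libraries and 3304 to 5482 in blood, so that day 30 replicate 1 was the deepest and the cleanest of the 6. The sort marker Cd8a, a chain of the CD8 co-receptor, had 2809, 518 and 766 CPM at day 30 and 172, 216 and 237 CPM in blood. Cd4, the helper cell co-receptor, stayed between 0.906 and 4.52 CPM at day 30 and between 3.24 and 6.03 CPM in blood. The read share of microglia genes was 0.622% to 1.35% at day 30 and 0.0676% to 0.111% in blood, a shift that runs beside every gene group below, and its part in their values was not tested. Naive blood replicate 2 stood apart through reads on neuron, astrocyte and oligodendrocyte genes, with neuron genes at 0.155% of its reads against 0.0266% to 0.0608% in the 3 day 30 libraries and 0.0359% and 0.0399% in the other blood libraries.

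Between day 30 brain and naive blood, limma called 145 of 19871 genes (0.730%) at a Benjamini-Hochberg adjusted p under 0.05. Of these, 137 (0.689%) were higher at day 30 and 8 (0.0403%) were lower. For 134 of the 137 higher genes every day 30 library lay above every blood library, against 7.93% of all genes tested, and for 8 of the 8 lower genes every day 30 library lay below, against 8.03%. The calls were made on the same libraries, so this separation is no separate support for them. Differences of the higher genes ran from 2.78 to 7.69 and those of the lower genes from -8.26 to -3.17, while the median over all tested genes was -0.02. Day 30 replicate 1 held the highest of the 3 day 30 values in scaled CPM for 105 of the 137 higher genes, and for 7615 of all 19871 genes tested. Without that library 79 genes passed (69 higher and 10 lower), and 68 of the 145 were among them. Among the 7 libraries with over 1000 unscaled CPM of background alone, 40 genes passed, 36 of them among the 145. They leave out day 30 replicate 1, day 3 brain replicate 1 and all naive brain libraries. The differences equal those without day 30 replicate 1, and only the estimate of the spread, from fewer libraries, is another. With background as a term in the fit 69 passed, 65 of them among the 145. All blood libraries had high background and all naive brain libraries low. That term therefore rests on day 30 replicate 1 and day 3 brain replicate 1 against the others of their groups. The other brain libraries enter through the shared estimate of the spread, and Fos, Socs1, Trem2, Sparc, Csf1r, Anxa2, Timp2, Nr4a2, Actrt2 and Lalba, all among the genes below, missed the threshold without at least 1 of those 6 (adjusted p = 0.0501 to 0.0744). Of the genes named below, edgeR on the recovered reads did not call Zfp808, Phf11b, Actrt2, Lalba, Cd160, Rgs1, Tigit, Entpd1, Ccr2, Fos, Fosb, Bst2, Sparc, Csf1r, H2-Aa, Anxa2, Ctss, Timp2 and Nr4a2 (adjusted p = 0.0527 to 0.795), and DESeq2 did not call Cd209a, Cd160, Fos, Csf1r and Nr4a2 (0.0599 to 0.706). DESeq2 called 289 genes, of which 229 were higher and 60 lower. The median over all tested genes moved to -0.45 with unscaled CPM, 0.19 with median centring, -0.14 by edgeR and -0.26 by DESeq2, and differences are to be read against these shifts. Beside the median of a gene list below, a range in parentheses covers 8 alternatives, which are 3 other scalings, both count tests, background as a term, the high background libraries alone and the fit without day 30 replicate 1. The last and the one before it use the same day 30 and blood libraries, and so give the same median. A count of higher members in a list is to be read against 0.689% of all genes, and of lower members against 0.0403%. Rose and fell are used below for called higher or lower in day 30 brain than in naive blood, and do not describe a change over time.

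**Figure D1:**
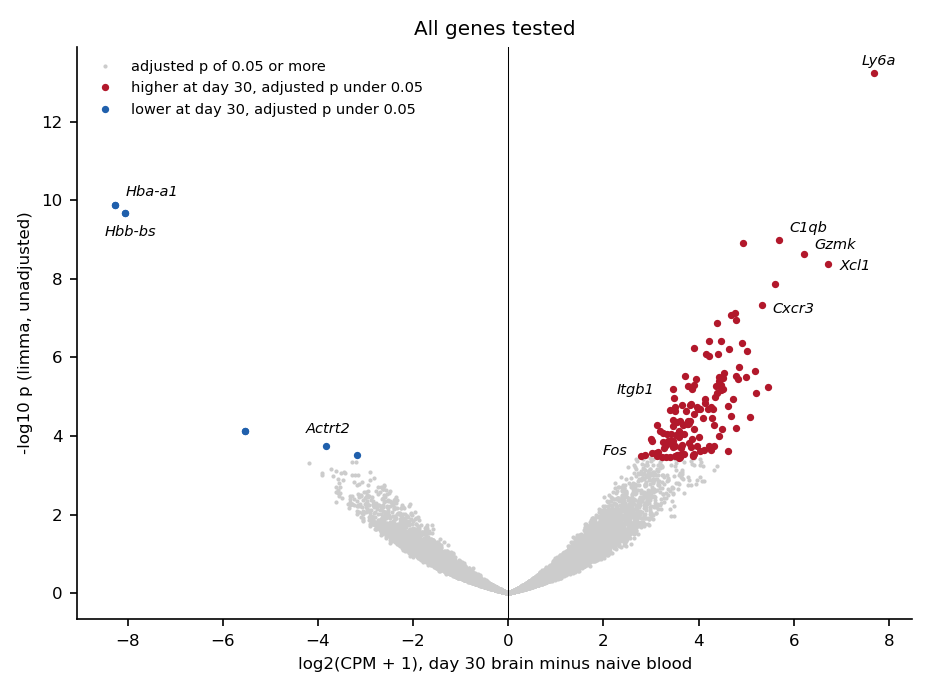
Each point is 1 of the 19871 genes tested, placed by its log2(CPM + 1) difference of day 30 brain minus naive blood (x axis) and by the unadjusted p-value of limma as -log10 (y axis), with genes of adjusted p under 0.05 in red (137 higher) or blue (8 lower). The called genes lie mostly on the right, Ly6a stands farthest right at 7.69, and the haemoglobin genes stand alone on the far left at -8.26 to -5.52.

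Ly6a showed the largest difference of all genes called higher at day 30. It encodes Sca-1, a surface protein that is induced by interferon and carried by activated and memory T cells. The 3 day 30 libraries had 1496, 312 and 635 CPM and the 3 blood libraries 4.87, 1.10 and 1.76 CPM, a difference of 7.69 ± 0.75 (adjusted p = 1.13e-09). In reads this was 6605, 679 and 1406 at day 30 against 9, 2 and 5 in blood. Every day 30 library was high and every blood library near its floor.

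Among the other leading genes were several of known roles in T cells. Serpina3g, a serine protease inhibitor of activated CD8 T cells, had 899, 93.7 and 28.5 CPM at day 30 and 0, 2.74 and 12.7 CPM in blood (5.19 ± 0.98, adjusted p = 0.00169), with the highest day 30 value in replicate 1. Without that replicate its adjusted p was 0.0539. S100a4, a calcium-binding protein of memory T cells and of macrophages, differed by 4.92 ± 0.85 (adjusted p = 0.000477) and Cmtm7, a membrane protein of the MARVEL family, by 4.86 ± 0.90 (adjusted p = 0.00141). Reep5, which shapes the endoplasmic reticulum, had 166, 63.8 and 76.8 CPM at day 30 and 0, 0.549 and 14.8 CPM in blood. Gemin7, a subunit of the complex that assembles spliceosomal particles, had 147, 68.9 and 116 CPM at day 30 and 7.03, 0 and 5.63 CPM in blood. Zfp808, a zinc finger gene, had 34.7, 27.1 and 59.6 CPM at day 30, while blood held 1 read of it in replicate 2 and none in the others. For these 3 genes every day 30 library was above every blood library, which was a condition for all leading genes.

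**Figure D2:**
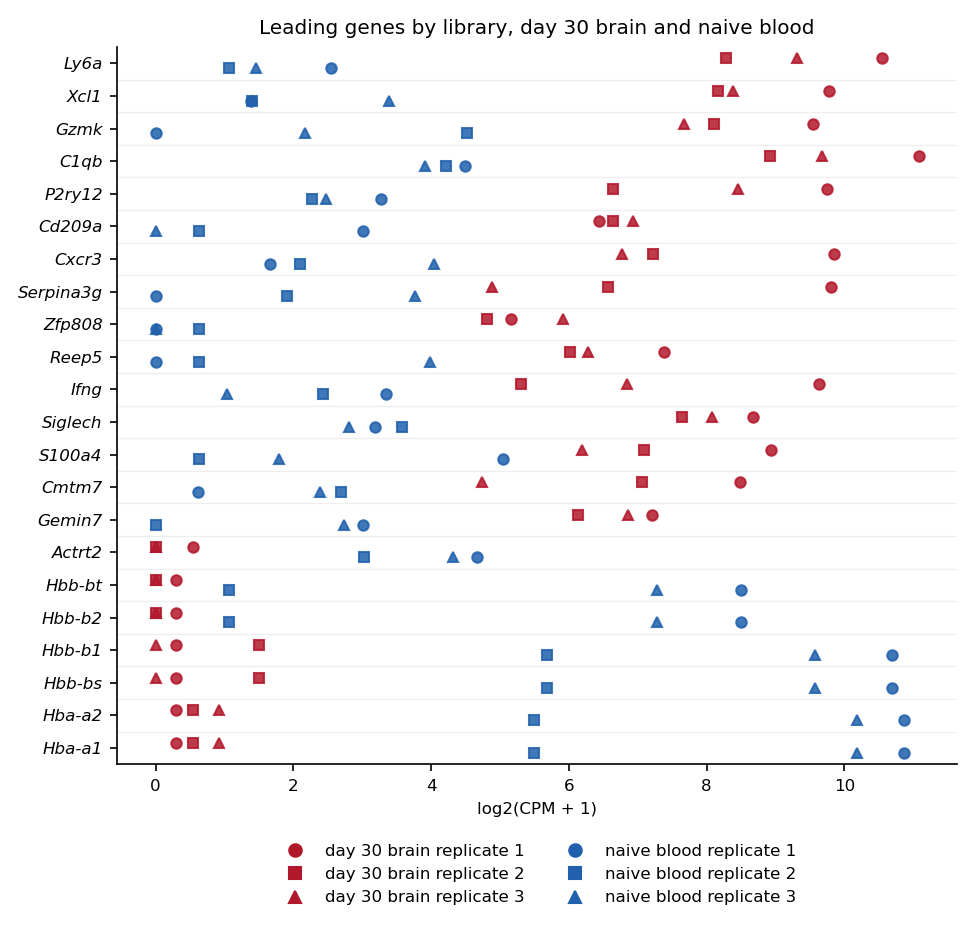
Values of the leading genes in each library as log2(CPM + 1) (x axis), with day 30 brain in red, naive blood in blue and a symbol for each replicate number. The genes were chosen with no overlap between groups. The red points therefore lie to the right of all blue points for the 15 higher genes and to the left for the 7 lower genes. Ly6a, in the top row, lies at 312 to 1496 CPM at day 30 and at 1.10 to 4.87 CPM in blood.

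Of 22 cytotoxic effector genes tested, 6 rose at day 30 (Xcl1, Gzmk, Ifng, Ccl3, Ccl4 and Ctsw) and 0 fell, against 0.689% and 0.0403% of all genes, with a list median of 2.62 (1.83 to 2.83) beside -0.02 over all genes. Over the 30 lists other than erythroid and platelet genes, 535 genes were tested and limma called 57 higher and 0 lower. Without adjustment 148 of them were higher and 18 lower (p under 0.05, against 6.83% and 3.92% of all genes), edgeR called 43 higher and 0 lower, and DESeq2 called 66 higher and 3 lower. Xcl1 encodes lymphotactin, a chemokine that attracts cross-presenting dendritic cells. It had 874, 286 and 333 CPM at day 30 and 1.62, 1.65 and 9.50 CPM in blood (6.71 ± 0.95, adjusted p = 9.13e-06). Gzmk, which encodes granzyme K, had 748, 275 and 203 CPM at day 30 and 0, 21.9 and 3.52 CPM in blood (6.21 ± 0.86, adjusted p = 5.65e-06). Both were at or near the floor in at least 1 blood library and high in all of day 30. Ifng, the gene of interferon gamma, had 794, 38.6 and 114 CPM at day 30 and 9.19, 4.39 and 1.06 CPM in blood (4.99 ± 0.95, adjusted p = 0.00202). Replicate 1 was the high library, and all day 30 values lay above blood.

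Ccl4 and Ccl3 encode inflammatory chemokines that both T cells and microglia make. Ccl4 had 856, 759 and 956 CPM at day 30 and 128, 36.8 and 56.7 CPM in blood (3.71 ± 0.71, adjusted p = 0.00202). The 3 day 30 libraries were nearly level in scaled CPM only. Their Ccl4 reads were 3777, 1654 and 2116 of 6844661, 1723245 and 1948611, a smaller share in replicate 1. Ccl3 had 522, 216 and 616 CPM at day 30 and 58.4, 3.29 and 26.0 CPM in blood (4.44 ± 0.86, adjusted p = 0.00227). Ctsw, a cathepsin of killer lymphocytes, differed by 3.65 ± 0.77 (adjusted p = 0.00612), and its adjusted p was 0.135 without day 30 replicate 1 and 0.0726 without blood replicate 2.

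The classical killing genes did not pass, and they are named here after their values were seen. Gzmb, which encodes granzyme B, had 439.5, 35.4 and 51.0 CPM at day 30 and 1.62, 60.3 and 114 CPM in blood, and the groups overlapped (1.83 ± 0.94, adjusted p = 0.488). Prf1, the gene of perforin, had 106, 6.89 and 0.903 CPM at day 30 and 3.79, 18.7 and 5.98 CPM in blood (adjusted p = 0.934), and Gzma had 134, 18.4 and 64.1 CPM and 37.3, 80.1 and 313 CPM (adjusted p = 0.827). For Nkg7, a granule membrane protein gene, all day 30 libraries (9196, 3742 and 4149.9 CPM) were above all blood libraries (1748, 852 and 1646 CPM), yet the difference of 1.95 ± 0.73 did not pass (adjusted p = 0.262). Ccl5 behaved alike, with 4772, 2859 and 3429.6 CPM at day 30 and 728, 661 and 1458 CPM in blood (adjusted p = 0.223).

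Of 18 killer lectin and natural killer receptor genes, 6 rose (against 0.689% of all genes) and 0 fell, with a median of 2.26 (1.66 to 2.95). Klrc1 encodes the inhibitory receptor NKG2A. It had 432, 314 and 439 CPM at day 30 and 49.7, 6.03 and 41.9 CPM in blood (3.98 ± 0.85, adjusted p = 0.00644), with little spread at day 30 in scaled CPM. Cd160, a receptor of the immunoglobulin superfamily on killer cells, had 343, 202 and 128 CPM at day 30 and 0, 5.49 and 72.5 CPM in blood (4.73 ± 0.97, adjusted p = 0.00451). Blood replicate 3 was the high blood library, still below every day 30 library. Both count tests gave Cd160 a smaller difference and no call, edgeR 2.89 (adjusted p = 0.262) and DESeq2 2.81 (0.173), and quality weights (0.0667), background as a term (0.0804) and the high background libraries alone (0.286) ended the call too. Klre1, another lectin-like receptor gene, differed by 3.70 ± 0.87 (adjusted p = 0.0188).

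The other 3 that rose are adaptors and an Fc receptor that myeloid cells use as well. Tyrobp, the adaptor DAP12, had 544, 497 and 1221 CPM at day 30 and 46.0, 4.94 and 70.4 CPM in blood (4.68 ± 0.75, adjusted p = 0.000126). Fcer1g, the gamma chain shared by Fc receptors, differed by 3.46 ± 0.69 (adjusted p = 0.00294) and Fcgr3, an Fc receptor for IgG, by 4.52 ± 0.87 (adjusted p = 0.00202). Calls in this list were lost for Fcer1g and Klre1 without day 30 replicate 3 (adjusted p = 0.05002 and 0.175), for Cd160 without blood replicate 1 (0.126) and for Klrc1 and Klre1 without blood replicate 2 (0.0996 and 0.176).

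Of 19 tissue residency genes tested, 4 rose (Cxcr6, Rgs1, Bhlhe40 and Litaf, against 0.689% of all genes) and 0 fell, with a median of 1.71 (1.25 to 1.94). Bhlhe40, a transcription factor of resident and activated T cells, had 585, 226 and 163 CPM at day 30 and 3.79, 28.0 and 13.7 CPM in blood (4.46 ± 0.77, adjusted p = 0.000449). Cxcr6, the receptor for the chemokine CXCL16 and a mark of resident cells, had 3651, 461 and 540.1 CPM at day 30 and 196, 35.7 and 68.6 CPM in blood (3.61 ± 0.80, adjusted p = 0.0111). Day 30 replicate 1 was far above the other day 30 libraries, which were themselves above all of blood. Rgs1, which dampens signals from chemokine receptors, differed by 3.00 ± 0.72 (adjusted p = 0.0242) and Litaf, a protein of late endosomes, by 4.48 ± 0.89 (adjusted p = 0.00297). Itgae, the integrin chain CD103 of many resident cells, had 31.0, 29.8 and 24.4 CPM at day 30 and 54.1, 90.0 and 48.2 CPM in blood, all day 30 libraries below all of blood, without passing (adjusted p = 0.700). Itga1, the integrin chain CD49a, and Cd69, a retention receptor, measured 2.16 ± 0.94 (adjusted p = 0.374) and 1.51 ± 0.71 (adjusted p = 0.437). These last 3 genes were picked out after their values were seen. Without day 30 replicate 1 the adjusted p was 0.186 for Cxcr6 and 0.174 for Rgs1. Cxcr6 also missed the threshold without blood replicate 2 (0.0872), and Rgs1 without day 30 replicate 3 (0.0647) and without blood replicate 1 (0.172).

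Among 20 chemokine receptor and adhesion genes, 5 rose (against 0.689% of all genes) and 0 fell, with a median of 1.45 (0.80 to 1.66). Cxcr3, the receptor for the interferon-induced chemokines CXCL9 and CXCL10, had 920.5, 148 and 108 CPM at day 30 and 2.16, 3.29 and 15.5 CPM in blood (5.34 ± 0.83, adjusted p = 8.14e-05). Itgb1, the integrin beta 1 chain that pairs with the alpha 4 chain for entry into the brain, had 1165, 543 and 606 CPM at day 30 and 49.7, 51.0 and 101 CPM in blood (3.49 ± 0.72, adjusted p = 0.00451). For both genes the groups did not overlap, and replicate 1 was the highest day 30 library. Ccr2, a receptor of monocytes and of effector T cells, had 156, 129 and 209.5 CPM at day 30 and 15.7, 2.19 and 29.6 CPM in blood (3.79 ± 0.85, adjusted p = 0.0113). Cx3cr1, the fractalkine receptor of microglia and of some effector T cells, differed by 3.42 ± 0.84 (adjusted p = 0.0281) and was the only one of the 5 that is also in the microglia list. Itga4, the alpha 4 chain, had 396, 530.3 and 382 CPM at day 30 and 252, 197 and 339.7 CPM in blood and did not pass (adjusted p = 0.753). The call of Ccr2 was lost without day 30 replicate 3 (adjusted p = 0.0576) or blood replicate 2 (0.151), and that of Cx3cr1 without day 30 replicate 1 (0.342) or blood replicate 1 (0.182).

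Of 18 inhibitory receptor and exhaustion genes, 5 rose (Ctla4, Tigit, Lair1, Entpd1 and Nr4a2, against 0.689% of all genes) and 0 fell, with a median of 1.79 (1.29 to 2.05). Ctla4, a receptor that competes with CD28 for its ligands, had 209, 153 and 82.6 CPM at day 30 and 16.2, 1.10 and 5.28 CPM in blood (4.52 ± 0.90, adjusted p = 0.00294). Tigit, an inhibitory receptor for the poliovirus receptor, had 192, 73.5 and 45.2 CPM at day 30 and 0, 7.68 and 8.45 CPM in blood (4.33 ± 0.98, adjusted p = 0.0129). Both genes were near or under the floor in at least 1 blood library. Lair1, a collagen receptor of many leukocytes, differed by 3.51 ± 0.75 (adjusted p = 0.00709), Entpd1, the ectonucleotidase CD39 found on exhausted T cells and on microglia, by 3.65 ± 0.90 (adjusted p = 0.0300) and Nr4a2, a nuclear receptor induced by antigen, by 3.66 ± 0.94 (adjusted p = 0.0444). Nr4a2 had 106, 129 and 75.9 CPM at day 30 and 2.16, 97.6 and 0.704 CPM in blood, so that blood replicate 2 reached the day 30 range, and edgeR and DESeq2 did not call it (adjusted p = 0.795 and 0.706). Pdcd1, the gene of PD-1, singled out after its values were seen, had 173, 22.5 and 55.1 CPM at day 30 and 0, 3.29 and 15.1 CPM in blood and narrowly missed the threshold (3.90 ± 1.02, adjusted p = 0.0503). Havcr2, the gene of TIM-3, measured 3.03 ± 0.89 (adjusted p = 0.0956), and Lag3 -0.13 ± 1.09 (adjusted p = 0.980). Leaving out day 30 replicate 1 or blood replicate 1 left 2 of the 5 calls each, and in both cases Tigit, Entpd1 and Nr4a2 were lost (adjusted p = 0.0774 to 0.228). Entpd1 was also lost without day 30 replicate 3 (0.106), Lair1 without blood replicate 3 (0.0813), and Nr4a2 without each of the 6 libraries but blood replicate 2 (0.0622 to 0.263).

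T cell receptor and CD8 complex genes, the identity genes of the sorted cells, gave no call among 18 tested by limma, with 5 at an unadjusted p under 0.05, all higher, 0 called by edgeR and 1 by DESeq2. With unscaled CPM limma called 3 of them higher, with adjusted p = 0.00126 for Cd3e and 0.0114 for Cd8a. Their median was 1.12 (0.44 to 1.33), and their read share was 0.755% to 1.57% at day 30 and 0.566% to 0.807% in blood. Cd8a measured 2.32 ± 0.72 (adjusted p = 0.122) and Cd8b1, its partner chain, 0.91 ± 0.73 (adjusted p = 0.715), with 3843, 689 and 420.5 CPM at day 30 and 725, 382 and 608 CPM in blood. Cd3e, a chain of the receptor complex, had 2370.2, 219 and 395 CPM at day 30 and 60.0, 28.0 and 233 CPM in blood (2.99 ± 0.83, adjusted p = 0.0714). In sums over sorted cells, fewer cells of a type and less RNA per cell cannot be told apart.

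Of 21 transcription factors of T cell fate, 1 rose and 0 fell, with a median of 1.51 (0.99 to 1.72). Id2, which favours effector and resident cells, had 3836, 834 and 1000.3 CPM at day 30 and 233, 172 and 101 CPM in blood (3.20 ± 0.74, adjusted p = 0.0166), and it missed the threshold without day 30 replicate 1 (0.184) or blood replicate 3 (0.0960). Hopx, a factor of effector cells, had 658, 218 and 289 CPM at day 30 and 145, 5.49 and 105 CPM in blood and did not pass (adjusted p = 0.0877). Ikzf1 and Ets1, which T cells use at all stages, measured 0.52 ± 0.68 and 0.34 ± 0.71.

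Of 22 naive and recirculating T cell genes, limma called 0, with 7 at an unadjusted p under 0.05 (2 higher, 5 lower), 0 called by edgeR and 1 by DESeq2. The list median was -0.18, and it was -0.70 with unscaled CPM, -0.87 with quantile normalization and 0.03 with median centring. Lower calls numbered 5 with unscaled CPM and 3 with quantile normalization, beside 1 higher call each. Il7r, the interleukin 7 receptor, had 356, 287 and 179 CPM at day 30 and 645, 563 and 716 CPM in blood. Lef1, a transcription factor of naive cells, had 245, 174 and 201 CPM at day 30 and 885, 358 and 546 CPM in blood, and Satb1, a chromatin organiser, 137, 225 and 341 CPM and 629, 484 and 589.9 CPM. For these 3 genes every day 30 library was below every blood library, and the adjusted p ran from 0.445 to 0.496. With unscaled CPM all 3 passed (adjusted p = 0.0215 for Il7r, 0.0224 for Lef1 and 0.0373 for Satb1), and with quantile normalization Il7r and Lef1 did (0.0256 and 0.0222). Ly6c2, a surface protein of memory T cells and of monocytes, lay above blood in all 3 day 30 libraries (5828, 1711 and 2835 CPM against 669, 202 and 1104 CPM, adjusted p = 0.0649). Of the homing genes, Ccr7, a chemokine receptor that guides cells to lymph nodes, had 570.4, 15.6 and 28.0 CPM at day 30 and 353, 179 and 277 CPM in blood, and S1pr1, the exit receptor of lymph nodes, 244, 197 and 27.1 CPM and 274, 173 and 206 CPM. The groups overlapped for both, which were picked out after their values were seen.

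**Figure D3:**
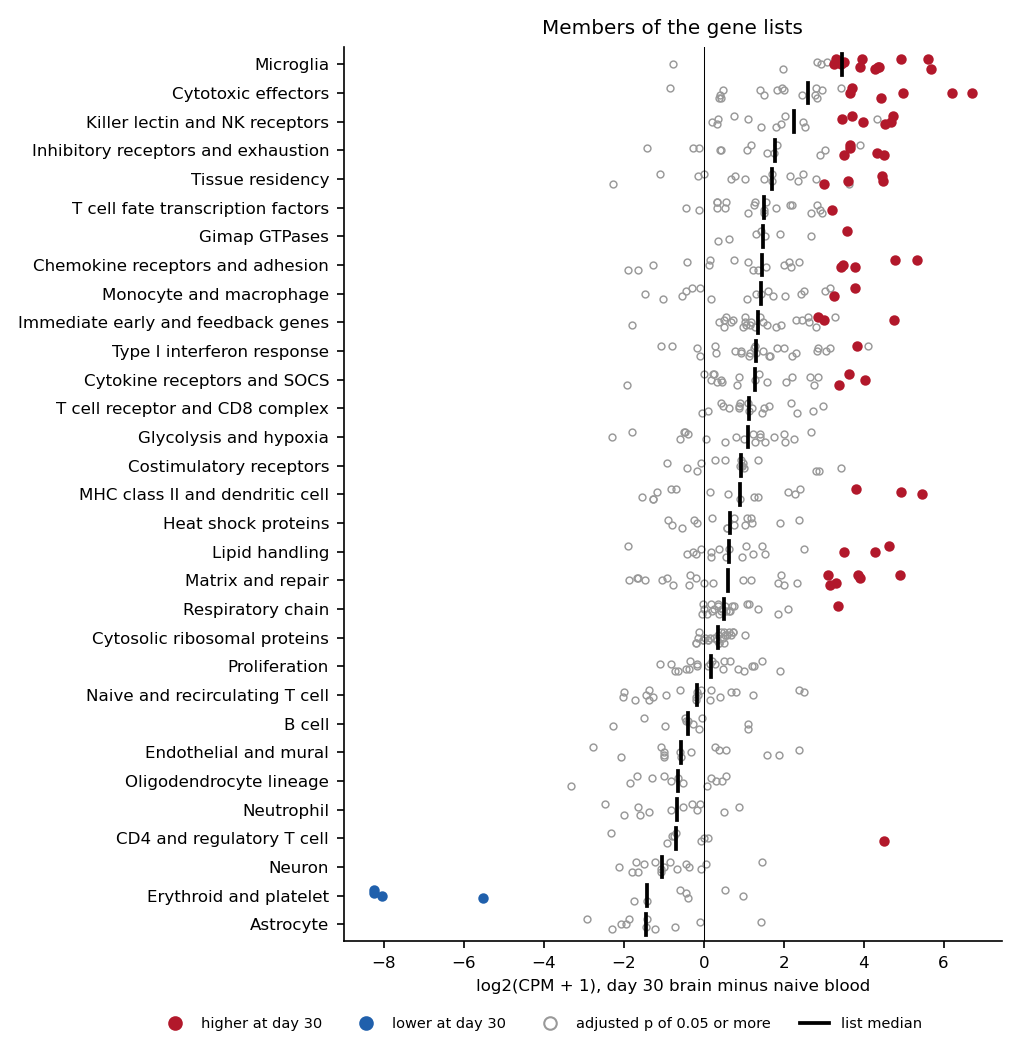
Each row is 1 of the 31 gene lists and each point 1 of its tested genes at its log2(CPM + 1) difference of day 30 brain minus naive blood (x axis), filled where the adjusted p was under 0.05, with a bar at the list median. Microglia genes lie farthest right with a median of 3.46, followed by cytotoxic effector genes at 2.62 and killer lectin and natural killer receptor genes at 2.26, and the haemoglobin genes lie alone at the left.

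Among 21 cytokine receptor and SOCS genes, 3 rose (against 0.689% of all genes) and 0 fell, all of them feedback inhibitors of cytokine signalling. Socs3 had 120.1, 31.2 and 71.4 CPM at day 30 and 5.41, 4.94 and 5.63 CPM in blood (3.38 ± 0.82, adjusted p = 0.0260). Socs1 had 132, 20.2 and 19.9 CPM at day 30 and 0.541, 1.10 and 3.17 CPM in blood (4.03 ± 1.02, adjusted p = 0.0393). Cish had 528, 81.7 and 46.5 CPM at day 30 and 3.24, 12.6 and 18.3 CPM in blood (3.62 ± 0.90, adjusted p = 0.0330). Replicate 1 was the highest day 30 library for each in scaled CPM. None of the 3 genes passed without that library (adjusted p = 0.187 to 0.386) or without blood replicate 1 (0.0658 to 0.199). Socs3 also missed the threshold without day 30 replicate 3 (0.0822), and Socs3 and Socs1 without blood replicate 2 (0.0641 and 0.0838). None of the 3 passed with median centring (0.0652 to 0.0902), quality weights (0.0549 to 0.102) or background as a term (0.105 to 0.211). Nor did any in the high background libraries alone (0.235 to 0.384). Only 1 of the 3 passed with either other pseudocount, without a filter or with the 5 CPM filter. The same held with quantile normalization and with the 6 libraries alone.

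Of 27 type I interferon response genes tested, 1 rose and 0 fell, with a median of 1.31 (0.72 to 1.64). Bst2, the interferon-induced tetherin that holds budding virus at the cell surface, had 201, 50.5 and 80.4 CPM at day 30 and 1.08, 3.84 and 28.2 CPM in blood (3.83 ± 0.80, adjusted p = 0.00577). Its call was lost without day 30 replicate 1 (0.0516) or blood replicate 1 (0.107). Ifit1, an interferon-induced RNA sensor gene named after its values were seen, had 299, 65.2 and 3.61 CPM at day 30 and 0.541, 3.84 and 1.41 CPM in blood and did not pass (4.11 ± 1.22, adjusted p = 0.0986). Outside the list, and also named after their values were seen, Cxcl10, a ligand of CXCR3, had 94.2, 135 and 30.7 CPM at day 30 and 0.541, 1.65 and 3.87 CPM in blood (4.78 ± 1.10, adjusted p = 0.0146), and Phf11b, an interferon-induced PHD finger gene, 446, 173 and 238 CPM and 6.49, 26.9 and 34.8 CPM (3.76 ± 0.85, adjusted p = 0.0119). Cxcl10 missed the threshold without day 30 replicate 2 (0.0833) or blood replicate 1 (0.0571), and Phf11b without day 30 replicate 1 (0.0547) or blood replicate 1 (0.134).

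The promoters of 5 of these called genes are shown because they hold the DNA words that interferon and cytokine signalling factors are known to bind. Each is the 250 bases before the gene start, 5′ to 3′ on the gene's strand, from RefSeq on GRCm38.p6, and all 5 genes lie on the minus strand. Capitals mark GAAANNGAAA, the core of the interferon-stimulated response element, in the first 4 and TTCNNNGAA, the core bound by STAT factors, in Socs3. The positions are chr8:71537473-71537722 for Bst2, chr5:92348890-92349139 for Cxcl10, chr14:59341331-59341580 for Phf11b, chr16:10785537-10785786 for Socs1 and chr11:117969367-117969616 for Socs3.
Bst2: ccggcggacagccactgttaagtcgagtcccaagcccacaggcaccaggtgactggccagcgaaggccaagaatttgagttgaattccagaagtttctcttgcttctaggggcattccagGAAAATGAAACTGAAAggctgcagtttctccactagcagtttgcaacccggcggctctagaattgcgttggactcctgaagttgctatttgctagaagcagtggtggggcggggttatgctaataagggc
Cxcl10: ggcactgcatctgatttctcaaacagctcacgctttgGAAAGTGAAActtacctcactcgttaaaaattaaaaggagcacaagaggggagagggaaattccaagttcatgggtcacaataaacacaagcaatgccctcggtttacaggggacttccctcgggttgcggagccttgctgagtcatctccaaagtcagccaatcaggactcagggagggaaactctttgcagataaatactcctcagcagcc
Phf11b: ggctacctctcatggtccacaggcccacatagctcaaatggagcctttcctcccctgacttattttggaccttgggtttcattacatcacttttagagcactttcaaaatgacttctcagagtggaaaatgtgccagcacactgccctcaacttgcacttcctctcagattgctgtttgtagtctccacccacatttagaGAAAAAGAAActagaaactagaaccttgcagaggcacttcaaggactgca
Socs1: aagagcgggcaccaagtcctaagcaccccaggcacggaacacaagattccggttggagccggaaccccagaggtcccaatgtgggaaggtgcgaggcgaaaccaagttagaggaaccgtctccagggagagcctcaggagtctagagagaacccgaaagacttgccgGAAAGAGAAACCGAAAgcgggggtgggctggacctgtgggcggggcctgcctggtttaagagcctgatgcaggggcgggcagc
Socs3: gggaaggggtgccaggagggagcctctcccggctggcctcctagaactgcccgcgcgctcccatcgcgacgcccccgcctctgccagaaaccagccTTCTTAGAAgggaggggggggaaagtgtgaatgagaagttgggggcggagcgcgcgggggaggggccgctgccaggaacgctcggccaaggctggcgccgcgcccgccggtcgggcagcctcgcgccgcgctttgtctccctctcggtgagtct
In Bst2 and in Socs1 the capitals hold 2 overlapping matches each. A TTCNNNGAA match in the Bst2 promoter, left in lower case up to the shared letters, runs into the first of them. Counting either strand, GAAANNGAAA was found in 978 of 32851 RefSeq promoters (2.98%), in 3.24% of the 14581 tested genes with a promoter in the table, and in 11 of the 105 higher genes with one (10.5%). TTCNNNGAA was found in 7.02% of all promoters, in 7.66% of the tested genes and in 13 of the 105 higher genes (12.4%). The difference between these shares was not tested, and a match describes the letters in this window only.

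Immediate early genes, which respond within minutes to receptor signals and to tissue handling, gave 3 higher (against 0.689% of all genes) and 0 lower calls of 28, with a median of 1.35 (0.77 to 1.63). Egr1, a zinc finger transcription factor, had 823, 169 and 181 CPM at day 30 and 12.4, 4.94 and 14.8 CPM in blood (4.77 ± 0.76, adjusted p = 0.000124). Fosb had 206, 111 and 193 CPM at day 30 and 8.11, 20.8 and 41.5 CPM in blood (3.02 ± 0.73, adjusted p = 0.0259), and Fos, a subunit of AP-1, 1465, 214 and 361 CPM and 158, 26.3 and 66.5 CPM (2.87 ± 0.74, adjusted p = 0.0444). All day 30 libraries were above blood for each gene. Fos was not called by edgeR (adjusted p = 0.116) or DESeq2 (0.0599), with either other pseudocount (0.102 and 0.0657), without a filter (0.0807), with the 5 CPM filter (0.0826), with median centring (0.127) or with background as a term (0.117). Fosb was not called by edgeR (0.0944), with median centring (0.0806) or with background as a term (0.0806). Neither gene was called in the high background libraries alone (0.317 for Fos and 0.129 for Fosb). The adjusted p of Fos was 0.382, 0.0759, 0.278 and 0.0982 without day 30 replicates 1 and 3 and blood replicates 2 and 3 in turn, while Fosb missed the threshold without each library but day 30 replicate 2 and blood replicate 3 (0.0532 to 0.221). Jun, the AP-1 partner, named after its values were seen, had 645, 74.8 and 91.2 CPM at day 30 and 56.2, 35.1 and 81.7 CPM in blood (adjusted p = 0.438).

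In 13 lists no gene was called by limma. Over the 215 genes tested in them, 16 reached an unadjusted p under 0.05 as higher and 14 as lower (against 6.83% and 3.92% of all genes), edgeR called 0 and DESeq2 called 2 higher and 3 lower. These lists comprise the T cell receptor complex and the naive and recirculating genes given above, costimulatory receptors, heat shock proteins, proliferation, glycolysis and hypoxia, cytosolic ribosomal proteins, neutrophil, B cell, neuron, astrocyte, oligodendrocyte, and endothelial and mural genes. Cytosolic ribosomal protein genes had a median of 0.37, which was -0.16 with unscaled CPM and -0.33 with quantile normalization, and proliferation genes had 0.18, -0.28 and -0.02 on the same scales. Among proliferation genes Hmgb2, a chromatin protein, had 888, 298 and 329 CPM at day 30 and 383, 120.1 and 237 CPM in blood, and Pcna, the DNA polymerase clamp, 525, 162 and 280.5 CPM and 150.3, 38.4 and 194 CPM. Both overlapped between groups. Glycolysis and hypoxia genes had a median of 1.12 (0.45 to 1.33), which was 0.45 without day 30 replicate 1, and Gapdh, a glycolytic enzyme, had 1503, 124 and 149 CPM at day 30 and 55.2, 115 and 62.7 CPM in blood (adjusted p = 0.295), with 1 library far above the others. Of the costimulatory receptors Sh2d2a, an adaptor of T cell activation, had 742, 339 and 247 CPM at day 30 and 22.7, 49.4 and 149 CPM in blood and did not pass (adjusted p = 0.0616).

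Single members rose in 2 further lists of cell function. Gimap7, a GTPase of lymphocyte survival, had 934, 172 and 90.8 CPM at day 30 and 8.65, 20.8 and 40.1 CPM in blood (3.58 ± 0.83, adjusted p = 0.0166), the only one of 8 Gimap genes called. Gimap4 had 2727, 755 and 1087 CPM at day 30 and 259.6, 139 and 234 CPM in blood and fell just short (adjusted p = 0.0508). Of 24 respiratory chain genes, with a median of 0.50 (-0.03 with unscaled CPM and -0.20 with quantile normalization), 1 rose. This was Uqcrc1, a subunit of complex III, with 514, 61.5 and 73.6 CPM at day 30 and 13.5, 5.49 and 22.9 CPM in blood (3.35 ± 0.81, adjusted p = 0.0257). Without day 30 replicate 1 neither passed (adjusted p = 0.281 for Gimap7 and 0.359 for Uqcrc1), nor without blood replicate 1 (0.138 and 0.0555), and Uqcrc1 missed it without blood replicate 2 (0.146).

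Microglia genes were higher in the day 30 libraries. Of 18 tested, 13 rose (against 0.689% of all genes) and 0 fell, with a median of 3.46 (2.77 to 3.87), and 17 of 18 were higher at an unadjusted p under 0.05, against 6.83% of all genes. Their summed level was 4921 to 20968 CPM at day 30 and 509 to 837 CPM in blood, and none of the 18 was at 0 reads in any of the 6 libraries. C1qb, a chain of complement C1q, had 2166, 486 and 817 CPM at day 30 and 21.6, 17.6 and 14.1 CPM in blood (5.69 ± 0.76, adjusted p = 3.37e-06). P2ry12, the nucleotide receptor that marks microglia, had 862, 99.2 and 350.0 CPM at day 30 and 8.65, 3.84 and 4.58 CPM in blood (5.61 ± 0.83, adjusted p = 2.63e-05). Siglech, a sialic acid-binding lectin of microglia and plasmacytoid dendritic cells, had 408, 199 and 269 CPM at day 30 and 8.11, 10.97 and 5.98 CPM in blood (4.94 ± 0.67, adjusted p = 3.37e-06). These defining genes were high in every day 30 library, with replicate 1 highest and replicate 2 lowest in scaled CPM.

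Cst3, the protease inhibitor cystatin C that microglia express at high levels, had 8461, 2362 and 5626 CPM at day 30 and 302, 193 and 206 CPM in blood (4.39 ± 0.72, adjusted p = 0.000173). Other called members were Cx3cr1, C1qa, C1qc, Trem2, Csf1r, Olfml3, Sparc and Ctss, with differences between 3.25 and 4.35. The 5 that did not pass were Tmem119, a microglia surface protein gene, with 2.83 ± 0.90 (adjusted p = 0.146), Sall1, a transcription factor of microglia, with 2.93 ± 0.94 (0.151), Gpr34 with 3.07 ± 1.05 (0.191), Fcrls with 1.97 ± 0.88 (0.393) and Slc2a5 with -0.76 ± 0.98 (0.837). Without day 30 replicate 1, 6 of the 13 kept their call, and between 9 and 12 kept it without day 30 replicate 3 or without any 1 blood library.

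**Figure D4:**
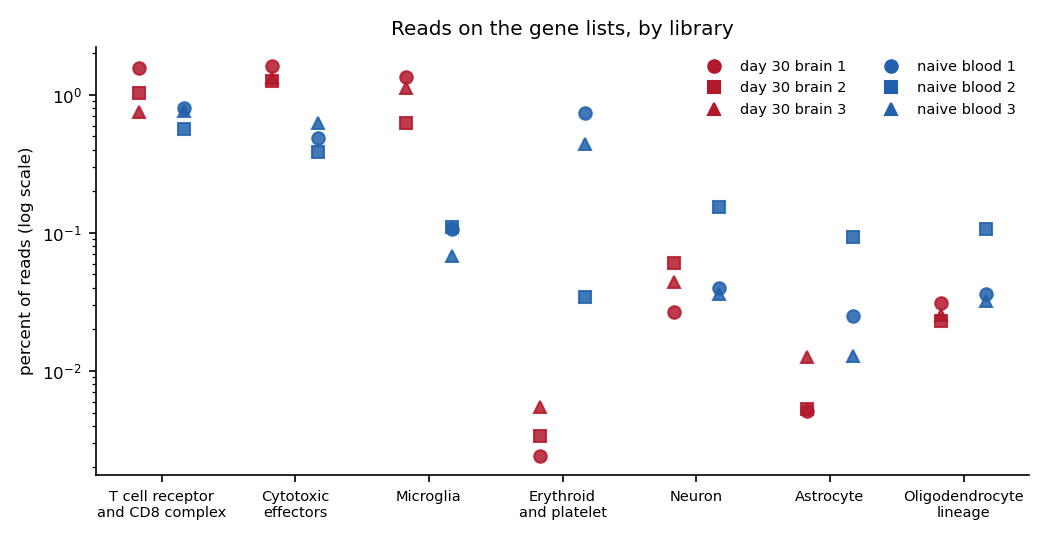
Percent of reads (log scale, y axis) on the genes of 7 lists in each of the 3 day 30 brain libraries (red) and the 3 naive blood libraries (blue), with a symbol for each replicate number. Microglia genes take 0.622% to 1.35% at day 30 and 0.0676% to 0.111% in blood, erythroid and platelet genes at most 0.00549% at day 30 and 0.0344% to 0.740% in blood, and blood replicate 2 stands above all other libraries for neuron, astrocyte and oligodendrocyte genes.

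Genes of lipid handling, matrix and antigen presentation are given beside the microglia share, since macrophages use many of them, and the part of microglia in their values was not tested. Of 19 lipid handling genes tested, 3 rose and 0 fell, with a median of 0.63 (0.10 to 0.84). Apoe, the apolipoprotein of glia and macrophages, had 2687, 1138 and 1358 CPM at day 30 and 36.8, 215 and 32.0 CPM in blood (4.64 ± 0.82, adjusted p = 0.000615). Fabp5, a fatty acid-binding protein used by resident memory T cells, had 38.3, 56.5 and 38.4 CPM at day 30 and 1.08, 4.94 and 0 CPM in blood (4.27 ± 0.90, adjusted p = 0.00630). Trem2, a lipid receptor of microglia, differed by 3.50 ± 0.87 (adjusted p = 0.0309), and its call was lost without day 30 replicate 1 (0.303), day 30 replicate 3 (0.0889) or blood replicate 1 (0.160).

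Of 24 matrix and repair genes tested, 6 rose (S100a4, S100a6, Spp1, Sparc, Anxa2 and Timp2, against 0.689% of all genes) and 0 fell, with a median of 0.61 (0.15 to 0.82). S100a6, a calcium-binding protein of memory T cells, had 1613, 546 and 431 CPM at day 30 and 44.9, 50.5 and 47.9 CPM in blood (3.90 ± 0.68, adjusted p = 0.000604). The blood libraries were within a few scaled CPM of each other. Spp1, which encodes osteopontin, a secreted protein of activated macrophages and T cells, had 15.9, 209 and 57.4 CPM at day 30 and 2.16, 6.03 and 2.11 CPM in blood (3.85 ± 0.96, adjusted p = 0.0322), with replicate 2 the high library and replicate 1 the low one. Its call was lost without day 30 replicates 2 or 3 (0.240 and 0.0750) and without blood replicates 1 or 3 (0.0989 and 0.0681). Sparc, a matrix glycoprotein also made by microglia, differed by 3.31 ± 0.82 (adjusted p = 0.0300). S100a4 and S100a6 kept their calls without any 1 of the 6 libraries, and 2 to 5 of the 6 genes kept theirs. Spp1, Sparc, Anxa2 and Timp2 lost their calls with a pseudocount of 0.1 (adjusted p = 0.0829 to 0.0878) and without a filter (0.0570 to 0.0713). They also lost them with the 5 CPM filter (0.0597 to 0.0610) and with median centring (0.0664 to 0.116). S100a4 was not called in the high background libraries alone (0.141).

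Of 17 MHC class II and dendritic cell genes, 3 rose and 0 fell, with a median of 0.91 (0.61 to 1.25). Cd209a, a lectin of dendritic cells and monocytes, had 85.9, 99.2 and 121 CPM at day 30 and 7.03, 0.549 and 0 CPM in blood (5.46 ± 1.08, adjusted p = 0.00289), the day 30 libraries close together in scaled CPM. H2-Aa, the alpha chain of an MHC class II molecule, had 24.9, 311 and 299 CPM at day 30 and 5.95, 2.19 and 38.0 CPM in blood (3.82 ± 0.85, adjusted p = 0.0113). Here the deepest library, replicate 1, was the low day 30 library and lay below blood replicate 3. Cd74, the invariant chain, had 177, 446 and 631 CPM at day 30 and 129, 36.2 and 70.0 CPM in blood and did not pass (adjusted p = 0.136). The call of H2-Aa was lost without day 30 replicates 2 or 3 (adjusted p = 0.0995 and 0.0900) and without blood replicates 1 or 2 (0.0527 and 0.109). Among 19 monocyte and macrophage genes, Ccr2 and Csf1r rose and 0 fell, and edgeR called neither. Csf1r, the receptor for macrophage colony-stimulating factor, had 575, 164 and 329 CPM at day 30 and 5.41, 115 and 47.9 CPM in blood, and its call was lost without day 30 replicate 1 (adjusted p = 0.121), day 30 replicate 3 (0.0756) or blood replicate 1 (0.345). Lyz2, the lysozyme of myeloid cells, named after its values were seen, had 502, 118 and 363 CPM at day 30 and 167, 6.58 and 23.2 CPM in blood (adjusted p = 0.0625).

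Haemoglobin genes made up 6 of the 8 genes lower at day 30. Hba-a1 and Hba-a2, the adult alpha globin genes, held identical counts in all libraries, so their reads may belong to either copy. Each had 0.227, 0.459 and 0.903 CPM at day 30, which is 1, 1 and 2 reads, and 1863, 43.9 and 1167 CPM in blood (-8.26 ± 1.03, adjusted p = 8.35e-07). Hbb-bs and Hbb-b1, the beta globin genes, were likewise identical, with 0.227, 1.84 and 0 CPM at day 30 and 1646, 50.5 and 763 CPM in blood (-8.05 ± 1.02, adjusted p = 8.35e-07). Blood replicate 2 was the low blood library for both pairs, yet above every day 30 library.

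Hbb-bt and Hbb-b2 shared their counts too, with 1 read at day 30 and 362, 1.10 and 155 CPM in blood (-5.52 ± 1.28, adjusted p = 0.0169), and this call was lost without blood replicate 1 (adjusted p = 0.204) or 3 (0.0982). With so few reads at day 30 the size of these differences rests on the pseudocount, and over the alternatives that of Hba-a1 lay between -11.2 and -6.43. The 11 erythroid and platelet genes tested gave 4 lower and 0 higher calls, all of them haemoglobin genes, and the red cell genes Alas2 and Slc4a1 did not pass (adjusted p = 0.604 and 0.931). Erythroid and platelet genes held at most 0.00549% of day 30 reads and 0.0344% to 0.740% of blood reads. Haemoglobin RNA is also known from immature red blood cells, and their part in these values was not tested. The other 2 lower genes were Actrt2, an actin-related gene, with 0.453, 0 and 0 CPM at day 30 and 24.3, 7.13 and 19.0 CPM in blood (-3.82 ± 0.95, adjusted p = 0.0309), and Lalba, the milk protein gene alpha-lactalbumin, with 0 reads at day 30 and 17.8, 3.84 and 7.04 CPM in blood (adjusted p = 0.0444). Actrt2 missed the threshold without any 1 of the 3 day 30 libraries (0.101 to 0.109) and without blood replicates 1 and 3 (0.0775 and 0.0512), and Lalba without any 1 of the day 30 libraries (0.1102 to 0.204), without blood replicate 1 (0.145) and without day 3 brain replicate 3 (0.0584).

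Genes of other blood and brain cells gave few calls. Of 9 genes of CD4 and regulatory T cells tested, 1 rose, which was Ctla4, shared with the inhibitory receptors, and 0 fell. Foxp3, the defining transcription factor of regulatory T cells, had 3.62, 24.3 and 2.71 CPM at day 30 and 27.0, 22.5 and 2.11 CPM in blood (adjusted p = 0.859), and Il2ra, a chain of the interleukin 2 receptor, 8.61, 19.3 and 30.3 CPM and 20.0, 10.4 and 23.6 CPM. The groups overlapped for both. The read share of neutrophil genes was 0.00513% to 0.0110% at day 30 and 0.00841% to 0.0190% in blood, and that of B cell genes 0.00276% to 0.0237% at day 30 and 0.0127% to 0.0149% in blood. For neurons, astrocytes and oligodendrocytes the list medians were -1.03 (-1.49 to -0.21), -1.44 (-2.10 to -1.23) and -0.63 (-1.16 to -0.24). Blood replicate 2 held the highest read share of each of these lists. Snap25, a synaptic vesicle fusion protein gene, had 2.49, 6.89 and 0.903 CPM at day 30 and 0, 199.7 and 7.74 CPM in blood.

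The same genes were set beside the other brain libraries, since every difference from blood includes whatever separates brain from blood without stroke. Against naive brain, limma called 27 of the 19871 genes (0.136%), and against day 3 brain 49 (0.247%). Of the 137 genes called higher at day 30 than in blood, 137 also had a naive brain mean above the blood mean. For 127 of them every naive brain library lay above every blood library. Both comparisons use the same blood libraries, in which the 137 genes were chosen as lower than at day 30. These counts were not made over all genes tested, so nothing is concluded from them. Ly6a had 1496, 312 and 635 CPM at day 30 and a mean of 643 ± 208 CPM in naive brain (SD, n = 3), a difference of 0.10 ± 0.75 (adjusted p = 0.969). For Gzmk the difference from naive brain was 0.05 ± 0.86 (adjusted p = 0.986), for Xcl1 -0.33 ± 0.95 (0.912), for Cxcr6 0.01 ± 0.80 (0.998), for Ctla4 -0.36 ± 0.90 (0.896) and for Itgb1 0.18 ± 0.72 (0.938). These differences were at most 0.36 in size with standard errors of 0.72 to 0.95, so a difference of 1 on the log2 scale would not have been resolved for them.

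Of the 145 genes called against blood, 3 also differed from naive brain, all of them lower at day 30. Fos had a mean of 679.8 ± 684 CPM at day 30 and 10112 ± 6554 CPM in naive brain (-4.19 ± 0.74, adjusted p = 0.00663). C1qa had 209 ± 272 CPM at day 30 and 2027 ± 1527 CPM in naive brain (-3.96 ± 0.89, adjusted p = 0.0491), and Cx3cr1 207 ± 251 CPM and 1983 ± 1387 CPM (-3.72 ± 0.84, adjusted p = 0.0491). The read share of microglia genes was 0.622% to 1.35% at day 30, below the 2.33% to 5.49% of naive brain.

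Against day 3 brain, Cxcr6 was higher at day 30, with 1551 ± 1819 CPM against 96.9 ± 102 CPM (4.09 ± 0.80, adjusted p = 0.00635), as were Klrc1 with 395 ± 70.3 CPM against 47.2 ± 48.8 CPM (3.85 ± 0.85, adjusted p = 0.0200) and Xcl1 with 498 ± 327 CPM against 86.0 ± 102 CPM (3.96 ± 0.95, adjusted p = 0.0492). Lower at day 30 than at day 3 were Spp1, with 94.0 ± 102 CPM against 3756 ± 5124 CPM (-4.96 ± 0.96, adjusted p = 0.00591), H2-Aa, with 212 ± 162 CPM against 3789 ± 4876 CPM (-3.91 ± 0.85, adjusted p = 0.0200), and the 6 haemoglobin genes. Hba-a1 had 0.5296 ± 0.344 CPM at day 30 and 261 ± 187 CPM at day 3 (-7.10 ± 1.03, adjusted p = 5.04e-05). The read share of T cell receptor and CD8 complex genes was 0.755% to 1.57% at day 30 and 0.141% to 0.355% at day 3, and the part of that difference in the values of Cxcr6, Klrc1 and Xcl1 was not tested.

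**Figure D5:**
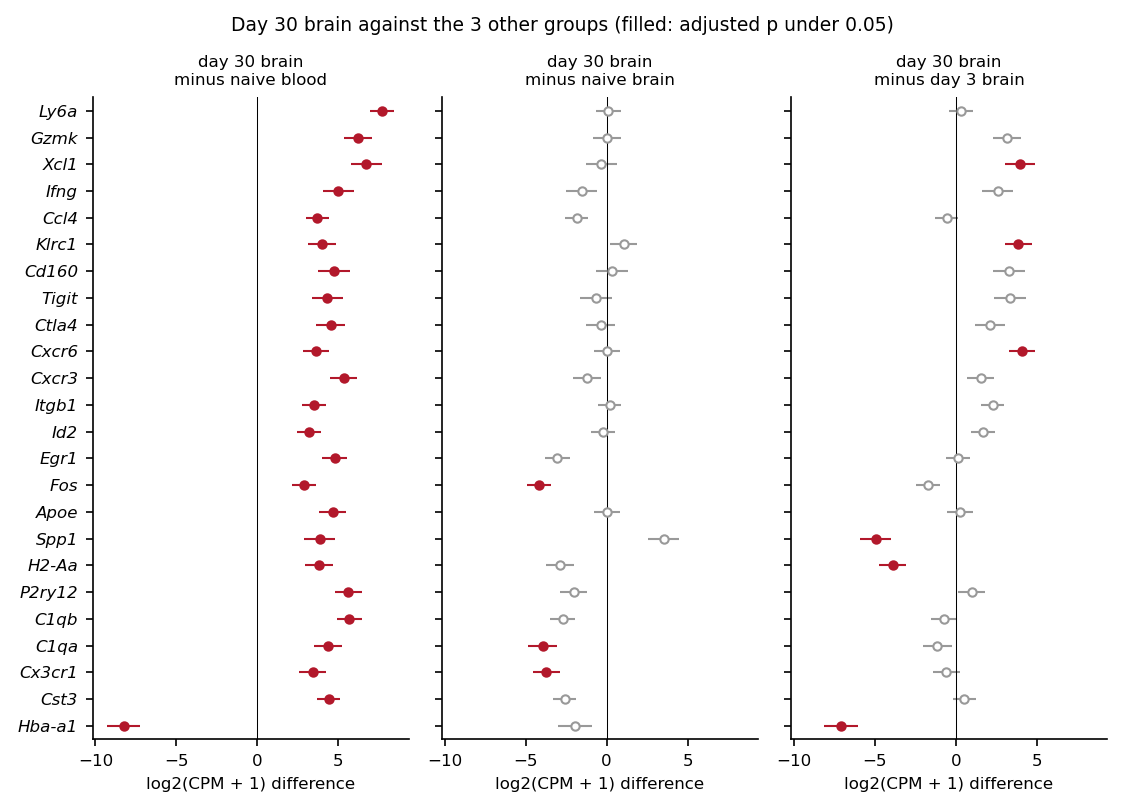
Differences in log2(CPM + 1) of day 30 brain minus naive blood, minus naive brain and minus day 3 brain (x axes of the 3 panels) for 24 genes, as point and SE, filled where the adjusted p was under 0.05. The 3 panels share the day 30 libraries. All 24 genes are filled against blood, 3 of them (Fos, C1qa and Cx3cr1) against naive brain and 6 (Xcl1, Klrc1, Cxcr6, Spp1, H2-Aa and Hba-a1) against day 3.

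In the GENCODE vM21 annotation of GRCm38, Ly6a lies on the minus strand at chr15:74994877-74998031 and Cxcr3 on the minus strand at chrX:101731535-101734269. Xcl1 lies at chr1:164931644-164935527 and overlaps the predicted gene Gm20743, and Gzmk lies at chr13:113171608-113225908 and overlaps Esm1, both on the opposite strand of the same region. Hba-a1 lies at chr11:32283511-32284465 and Hbb-bs at chr7:103826534-103828096. Of the 132 genes named by the rule, 129 were located, and 25 of these overlap another gene of the table, among them P2ry12 with Med12l, Cxcr6 with Fyco1 and Cd160 with Pdzk1. Whether the counting used strand is not given in the sources used here, so reads of such pairs may not be separable.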

How the data were processed

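The assay was RNA-seq of sorted CD8 T cells, with libraries amplified by a SMART-Seq v4 kit without molecular identifiers, per the labels' protocols. The deposited table holds a signal for each gene and library that its file name calls normalized CPM. The submitters' processing notes name FastQC 0.11.2, STAR 2.5.3a, featureCounts of Subread, edgeR and the build mm10, with no role or order, and the sources used here give no annotation, strand setting or filter. Column sums differ between libraries because of that scaling, and 100.0% of values were whole multiples of 1 read within a tolerance of 1e-06 reads, so read counts were recovered for all 12 libraries. Counting intervals and floors cover counting error only.

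The comparison was fitted with limma 3.58.1 (trend) in R 4.3.3 on log2(CPM + 1) over all 12 libraries in 4 groups of 3, which share 1 estimate of the spread, for genes at 1 CPM or more in 3 or more of the 6 libraries compared. The plan had assumed CPM, and the test for CPM was kept. P-values were adjusted by Benjamini-Hochberg over all 19871 genes tested. Named genes were up to 15 per direction by size of difference among those called whose higher group averaged 10 CPM or more and with no overlap between groups, up to 4 of each list (called first, by p, then by mean CPM), and genes that check the sort. Predicted loci, receptor segments, pseudogenes and chemosensory receptor genes were left out of the first set. Any further gene named was chosen after its values were seen. The members and lists were chosen with earlier results of these data known. Alternatives were other pseudocounts, filters and scalings, the 6 libraries alone, quality weights, edgeR 4.0.16 and DESeq2 1.42.0 on the recovered reads, a replicate block, background, and each library left out. Scripts were tested on simulated data. Positions are from GENCODE vM21, and promoters are from RefSeq on GRCm38.p6. Of 23937 genes, 4066 were not tested, among them Isg15 and Il17a. Some members of the lists are counted but not reported here by name. Between any pair of libraries at most 2.30% of genes had equal reads, so no library was counted as a copy of another, and 83 tested genes shared their counts with another gene.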

Additional observations from a re-analysis of the deposited data

Results flagged for a closer look

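For 14 genes the difference from naive blood was not the same size at day 30 as in another brain group, by the limma test of day 30 brain against that group, since both differences use the same blood libraries. Against day 3 brain, Cxcr6 was higher at day 30 by 4.09 (adjusted p = 0.00635), Xcl1 by 3.96 (0.0492) and Klrc1 by 3.85 (0.0200), on the log2(CPM + 1) scale. Lower at day 30 were Spp1 at -4.96 (0.00591) and H2-Aa at -3.91 (0.0200). The haemoglobin genes were lower too, Hba-a1 and Hba-a2 at -7.10 (5.04e-05 each), Hbb-bs and Hbb-b1 at -6.88 (5.53e-05 each) and Hbb-bt and Hbb-b2 at -5.35 (0.0492 each). Against naive brain, Fos was lower at day 30 at -4.19 (adjusted p = 0.00663), C1qa at -3.96 (0.0491) and Cx3cr1 at -3.72 (0.0491). Each group has 3 libraries.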

How the results depend on the processing

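No difference of a called gene changed sign under any of 26 alternatives, and 26 of the 145 genes were called under each of them, among them Ly6a, Xcl1, Gzmk, Cxcr3, Ccl4, Itgb1, Bhlhe40, C1qb, P2ry12 and 4 haemoglobin genes. For many genes above, only some of the alternatives that ended a call are given. Counts moved by over 1.5 times in total or in 1 direction with unscaled CPM (256 genes, 233 higher and 23 lower), median centring (92, of which 85 were higher), DESeq2 (289, with 229 higher and 60 lower), background as a term (69, with 62 higher), the high background libraries alone (40, with 34 higher), quantile normalization (19 lower) and a filter of 5 CPM (5 lower). Leaving out 1 of the 12 libraries in turn gave 79 to 200 genes, 69 to 191 of them higher and 4 to 15 lower. The cause of these moves was not tested. With a replicate block 265 genes passed, 253 of them higher, but libraries of the same number did not deviate together (correlations of 0.0528, 0.0672 and -0.0185), so the numbers were not taken as pairs. Of the 145 genes, 91 were called by edgeR, and 123 of the 141 with an adjusted p by DESeq2. Depth limits genes near 3 reads, which is up to 1.65 CPM in blood, and the Poisson noise of 1104490 to 2141262 reads there is larger than in day 30 replicate 1.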

Other observations

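The genes below were chosen after their values were seen. Among called genes outside the lists were proteases and membrane proteins of lysosomes. Ctsz, a cathepsin gene, had 458, 81.7 and 273 CPM at day 30 and 4.87, 6.03 and 10.9 CPM in blood (4.79 ± 0.78, adjusted p = 0.000158). Ctsh, another cathepsin gene, had 181, 156 and 196 CPM at day 30 and 4.33, 10.4 and 13.02 CPM in blood (4.23 ± 0.73, adjusted p = 0.000449). Lgmn, which encodes the protease legumain, differed by 3.85 ± 0.77, Ctsa by 3.81 ± 0.80, Ctsb by 3.46 ± 0.77, Ctsl by 3.12 ± 0.71, Lamp2 by 4.13 ± 0.86 and Cd63 by 4.31 ± 0.92. All day 30 libraries were above all blood libraries for these 8 genes. Leaving out 1 of the 6 libraries compared ended the calls of Ctsa, Ctsb, Ctsl, Lamp2 and Cd63 for at least 1 library each (adjusted p = 0.05002 to 0.126), day 30 replicate 1 among them for all but Lamp2, whose call was lost without blood replicate 1. Each was lower on average at day 30 than in naive brain, by differences of -2.33 to -0.56, none of which passed the test.

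Several called genes outside the lists are known from interferon responses or from myeloid cells. Ccl12, a monocyte-attracting chemokine gene, had 106, 219 and 285 CPM at day 30 and 6.49, 7.13 and 10.9 CPM in blood (4.39 ± 0.89, adjusted p = 0.00357). Ifi35, an interferon-induced gene, had 391, 161 and 54.2 CPM at day 30 and 3.24, 13.7 and 3.52 CPM in blood (4.53 ± 0.86, adjusted p = 0.00188). Irf8, a transcription factor of myeloid cells and of effector CD8 T cells, differed by 3.50 ± 0.74 (adjusted p = 0.00630), and Trim30d, a TRIM family gene, by 3.54 ± 0.79 (adjusted p = 0.0116). Irf8 missed the threshold without blood replicate 3 (0.0779) and Trim30d without day 30 replicates 2 or 3 (0.0586 and 0.0595). Alox5ap, which serves leukotriene synthesis, had 89.7, 118 and 119 CPM at day 30 and 1.62, 7.68 and 4.93 CPM in blood, and Ly86, a partner of a Toll-like receptor homologue, 429.8, 249.8 and 359 CPM and 62.2, 6.03 and 14.4 CPM. Microglia genes moved with these genes, and their part was not tested.

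Naive blood replicate 2 held more of several neuron and glia genes than the other 5 libraries of the comparison. It had 146 CPM of Gad1, a GABA synthesis gene, 149 CPM of Aldoc, an astrocyte aldolase gene, and 91.6 CPM of S100b, a glial calcium-binding protein gene. The other 5 libraries had at most 14.6, 7.02 and 9.15 CPM of these genes. Not every glia gene followed. Cnp, an oligodendrocyte gene, had 82 reads in blood replicate 2, 232 in blood replicate 1 and 1335 in day 30 replicate 1. Blood replicate 2 also had the lowest haemoglobin level of the 3 blood libraries, with 43.9 CPM of Hba-a1 against 1167 and 1863 CPM in the others.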
